A study of Mus musculus with 10 samples.

Results

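The insulin-like growth factor binding proteins (IGFBPs) of the mouse were followed here with the growth factor IGF1 and its receptor through ureteric bud (UB) organoids, collecting duct (CD) organoids and adult collecting duct cells. The genes were chosen by symbol, and all 9 were found among the 39273 genes of the deposited RNA-seq table: the 7 binding protein genes *Igfbp1* to *Igfbp7*, the ligand gene *Igf1* and the receptor gene *Igf1r*. There were 10 libraries in 5 groups of 2. UB organoids were grown in Matrigel from T-shaped ureteric buds of E11.5 embryonic kidneys, which were kept in the UB culture medium mUBCM for 5, 10 or 20 days (called day 5, day 10 and day 20 here). CD organoids were day 10 UB organoids moved to the mouse CD differentiation medium mCDDM. These 4 groups carried the *Wnt11*-RFP reporter (Wnt11-RFP +/-) on a C57BL/6 x Swiss Webster background. According to the design text of the series, adult mCD cells were sorted by FACS for Venus from kidneys of *Hoxb7*-Venus mice aged 2 months, whereas their sample labels name them organoids and repeat the age, genotype and strain of the organoid groups. The description in the design text was followed. The *Hoxb7*-Venus reporter marks the ureteric lineage, so the adult group is a sorted population rather than a culture. Neither labels nor methods say whether the 2 libraries of a group came from separate cultures or animals, so p-values measure the spread between libraries, which may be technical. mUBCM contains, among other factors, FGF9, GDNF, CHIR99021, TTNPB, RSPO1 and the inhibitors LDN-193189, A83-01, SB202190 and JAK Inhibitor I, and mCDDM contains FGF9, Y27632, DAPT, PD0325901, aldosterone and vasopressin. Both media carry insulin, through the insulin-transferrin-selenium supplement and B-27, and neither lists an added IGF.

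IGF1 and IGF2 are secreted growth factors that bind the receptor tyrosine kinase IGF1R, whose signal passes through the IRS adaptors to PI3K and AKT. IGFBPs bind the ligands outside the cell, where they prolong the life of the growth factor, keep it from the receptor or carry it to the cell surface, and proteases such as PAPPA release it again by cutting the binding protein. IGFBP1 to IGFBP6 bind IGFs with high affinity, while IGFBP7 binds them weakly and is better known as a matrix and vascular protein. In the kidney, IGF signalling is a known regulator of organ size, and the binding proteins are made in distinct segments and cell types.

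The libraries held between 11913613 and 24536676 counts. The floor used here, 3 counts in a library, lay between 0.109 and 0.241 CPM (counts scaled to a common library size), and floors cover counting error only. The labelled cell types were checked against markers. All 6 markers of the ureteric and collecting duct lineage were above the floor in every library, and the 4 UB tip markers (*Wnt11*, *Ret*, *Etv5*, *Gfra1*) summed to 1760 to 3490 CPM in UB organoids, 128 to 129 CPM in CD organoids and 74.3 to 89.9 CPM in adult mCD. The 4 principal cell markers (*Aqp2*, *Aqp3*, *Aqp4*, *Scnn1g*) summed to 49.9 to 158 CPM in UB organoids, 773 to 933 CPM in CD organoids and 7580 to 7920 CPM in adult mCD. Adult mCD also held RNA of cells other than collecting duct: the proximal tubule list summed to 3900 to 4620 CPM, the thick ascending limb and distal tubule list to 3670 to 3900 CPM and the endothelial list to 611 to 618 CPM, against at most 34.9, 6.58 and 18.9 CPM in the organoids. The 4 Y-linked genes examined summed to at most 0.875 CPM in the day 5 and day 10 libraries and to 230 to 295 CPM in the other 6, so the sex of the embryos differed between day 5 or day 10 and all other groups and cannot be told apart from the group. The 2 day 10 libraries differed from each other more than the libraries of any other group, with a chi-square of 22.2 per gene against 2.58 to 9.71.

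The set of IGFBP mRNAs turned over from an *Igfbp2*-rich to an *Igfbp7*-rich form. On the length-corrected RPKM scale, on which different genes can be compared, *Igfbp2* made up 75.8% ± 0.169 (SD, n = 2) of the summed level of the 7 IGFBP genes at day 5, 44.8% ± 4.36 at day 10, 26.2% ± 1.1 at day 20, 1.28% ± 0.253 in CD organoids and 0.131% ± 0.0331 in adult mCD. *Igfbp7* went the opposite way, from 0.563% ± 0.309 at day 5 through 8.08% ± 3.25 and 22.9% ± 1.5 to 69.8% ± 1.2 in CD organoids and 70.1% ± 1.13 in adult mCD. *Igfbp4* held the largest share of any gene at day 20, 34.1% ± 2.02, after 7.27% ± 2.33 at day 5 and 27.1% ± 5.32 at day 10, but only 0.72% ± 0.507 in CD organoids and 8.21% ± 1.11 in adult mCD. The rest was mostly *Igfbp5*, at 13.0% ± 0.0794 to 27.7% ± 2.05, and in adult mCD *Igfbp3*, at 8.04% ± 0.0745. *Igfbp1* and *Igfbp6* never exceeded a mean of 0.565%. The summed RPKM itself was 430 ± 38.4 at day 5, 185 ± 56 at day 10, 140 ± 7.23 at day 20, 227 ± 7.22 in CD organoids and 554 ± 3.18 in adult mCD. When lengths were ignored and CPM were summed instead, *Igfbp7* reached 35.5% ± 1.67 in CD organoids and *Igfbp5* 62.2% ± 2.74, so the leading gene of the CD organoids depended on the length correction. The same held at day 10, where *Igfbp4* (35.9% ± 7.74) and *Igfbp5* (31.6% ± 7.17) were above *Igfbp2* (26.7% ± 2.08) by CPM. At day 20 *Igfbp4* led on both scales, with 45.7% ± 3.09 by CPM. In adult mCD *Igfbp7* led on both scales, with 41.9% ± 1.18 by CPM. In bulk libraries such as these, fewer cells of a type and less RNA per cell cannot be told apart.

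**Figure D1:**
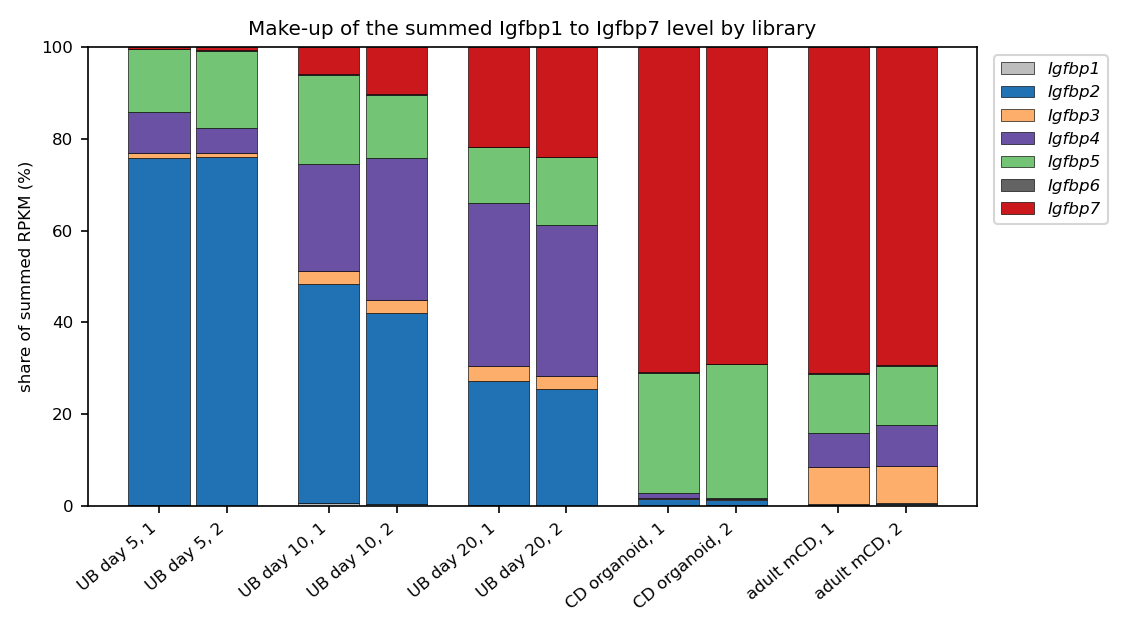
Share (%) of each binding protein gene in the summed RPKM of *Igfbp1* to *Igfbp7*, with 1 stacked bar for each of the 10 libraries. *Igfbp2* (blue) falls from 75.7% and 76% in the day 5 libraries to 0.154% and 0.107% in adult mCD, while *Igfbp7* (red) makes up 69% to 70.9% in the CD organoid and adult mCD libraries.

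The genes lie at 7 places in the GRCm38 genome, and 4 of the binding protein genes stand in neighbouring pairs. On chromosome 1, *Igfbp2* (72824503 to 72852474, + strand) and *Igfbp5* (72857932 to 72874884, − strand) converge with 5457 bases between them. On chromosome 11, *Igfbp1* (7197782 to 7202546, + strand) and *Igfbp3* (7206086 to 7213923, − strand) converge with 3539 bases between them. *Igfbp4* lies elsewhere on chromosome 11 (99041244 to 99054392, +), *Igfbp6* on chromosome 15 (102144362 to 102149511, +), *Igfbp7* on chromosome 5 (77349240 to 77408041, −), *Igf1* on chromosome 10 (87858265 to 87937042, +) and *Igf1r* on chromosome 7 (67952827 to 68233668, +). *Igfbp7* overlaps *Polr2b* and *Gm34648* and *Igf1* overlaps *Igf1os*, each on the opposite strand. Whether the counting used strand is not given in the sources used here, so reads of these overlapping genes cannot be told apart.

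The 250 bases upstream of a RefSeq start are shown for the 3 binding protein genes that stood lower after conversion to CD organoids than on day 10 or day 20, *Igfbp2*, *Igfbp3* and *Igfbp4*, and for *Igfbp7*, which was higher. They come from RefSeq for GRCm38.p6, where all 9 genes had an entry and *Igfbp2* had 2, and are written 5′ to 3′ on the strand of the gene. The window of *Igfbp2* is chr1:72824230-72824479 (+), that of *Igfbp3* chr11:7213924-7214173 (−), that of *Igfbp4* chr11:99040994-99041243 (+) and that of *Igfbp7* chr5:77408046-77408295 (−). Capitals mark matches on either strand to the TATA motif TATAAA and the GC box motif GGGCGG.
Igfbp2 upstream window: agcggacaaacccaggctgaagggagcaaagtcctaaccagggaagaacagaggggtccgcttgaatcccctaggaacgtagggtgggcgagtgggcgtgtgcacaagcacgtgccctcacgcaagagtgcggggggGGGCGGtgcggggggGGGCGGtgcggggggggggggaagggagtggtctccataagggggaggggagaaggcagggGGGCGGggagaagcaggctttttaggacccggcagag
Igfbp3 upstream window: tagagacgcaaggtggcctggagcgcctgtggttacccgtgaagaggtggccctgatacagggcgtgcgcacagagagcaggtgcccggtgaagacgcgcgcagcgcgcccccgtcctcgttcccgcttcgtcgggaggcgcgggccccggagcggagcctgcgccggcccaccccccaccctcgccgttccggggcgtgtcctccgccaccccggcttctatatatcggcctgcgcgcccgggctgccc
Igfbp4 upstream window: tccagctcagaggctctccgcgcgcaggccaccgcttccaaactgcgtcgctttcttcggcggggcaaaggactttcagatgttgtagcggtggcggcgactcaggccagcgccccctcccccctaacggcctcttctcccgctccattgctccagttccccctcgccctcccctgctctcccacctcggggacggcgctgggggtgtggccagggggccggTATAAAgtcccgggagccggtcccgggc
Igfbp7 upstream window: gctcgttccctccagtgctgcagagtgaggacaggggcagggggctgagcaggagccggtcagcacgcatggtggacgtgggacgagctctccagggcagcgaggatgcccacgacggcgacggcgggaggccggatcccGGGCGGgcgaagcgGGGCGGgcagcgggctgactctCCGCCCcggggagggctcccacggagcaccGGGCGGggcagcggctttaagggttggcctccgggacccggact
The *Igfbp2* window held 3 GC boxes, that of *Igfbp7* held 4, and that of *Igfbp4* held a TATA match beginning 28 bases before the start, whereas neither motif was found in the *Igfbp3* window. The window of the second *Igfbp2* entry, chr1:72825137-72825386 (+), inside the gene and not shown, held neither motif, with 56.4% G and C and 11 CpG dinucleotides. Among all 32851 windows of this length in the table, 12.37% held the TATA motif and 32.74% the GC box. The 4 windows were rich in G and C, at 67.2%, 73.2%, 69.2% and 74% in the order shown, against a median of 52.4% over all windows, and held 14, 32, 22 and 26 CpG dinucleotides against a median of 6. Such matches describe the letters of these windows and nothing about the factors that bind there.

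*Igfbp2*, which encodes a binding protein with a preference for IGF2, fell from day 5 to day 20 and again to the CD organoids and adult mCD. Its level was 974 and 1086 CPM in the 2 day 5 libraries, 338 and 191 CPM at day 10, 112 and 115 CPM at day 20, 10.5 and 7.62 CPM in CD organoids and 2.71 and 1.89 CPM in adult mCD. No 2 groups overlapped, and the order of the groups was the same as that of its shares. From day 5 to day 20 *Igfbp2* dropped 9.08-fold (log2 fold change −3.18, SE 0.206, adjusted p = 5e-08 in edgeR). The step from day 5 to day 10 was 3.9-fold (log2 −1.96, SE 0.195, adjusted p = 6.58e-06) and stayed under the 4-fold limit. It passed that limit without the first day 5 library (log2 −2.04), without the first day 10 library (−2.44) and with limma on RPKM (−2). CD organoids had 28.8-fold less than day 10 UB organoids (log2 −4.85, SE 0.248, adjusted p = 2.06e-09) and 12.3-fold less than day 20 UB organoids (log2 −3.63, SE 0.245, adjusted p = 3.97e-08). Adult mCD had 48.0-fold less than day 20 UB organoids (log2 −5.59, SE 0.301, adjusted p = 1.7e-09). CD organoids kept 3.89-fold more than adult mCD (log2 1.96, SE 0.377, adjusted p = 0.000615), which was short of 4-fold.

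*Igfbp7*, also known as angiomodulin or Mac25, rose along the same series. The 2 libraries had 3.20 and 8.08 CPM at day 5, 29.5 and 34.4 CPM at day 10, 65.6 and 77.9 CPM at day 20, 369 and 345 CPM in CD organoids and 905 and 883 CPM in adult mCD. Again no 2 groups overlapped, and the 5 groups stood in the opposite order to those of *Igfbp2*. The rise was 5.6-fold from day 5 to day 10 (log2 2.48, SE 0.243, adjusted p = 5.96e-06) and 12.5-fold from day 5 to day 20 (log2 3.65, SE 0.243, adjusted p = 6.51e-08). The 2 day 5 libraries differed among themselves, and without the first of them the day 10 difference was 1.98 on the log2 scale, just short of 4-fold, and the day 20 difference 3.14. Without the second they were 3.3 and 4.46. From day 10 to day 20 the difference was 2.24-fold (log2 1.16, SE 0.204, adjusted p = 0.000813). CD organoids exceeded day 10 UB organoids 11.1-fold (log2 3.48, SE 0.212, adjusted p = 1.14e-08) and day 20 UB organoids 4.98-fold (log2 2.31, SE 0.202, adjusted p = 4.84e-07). In adult mCD *Igfbp7* was the most abundant of the 9 genes per length, at 389 ± 8.49 RPKM. Adult mCD exceeded day 20 UB organoids 12.5-fold (log2 3.64, SE 0.211, adjusted p = 3.62e-09) and had 2.5-fold more than CD organoids (log2 −1.32 for CD organoids against adult mCD, SE 0.191, adjusted p = 5.21e-05). Endothelium is a known site of *Igfbp7* expression, and the 6 endothelial markers, all above the floor in adult mCD, summed there to 611 to 618 CPM. In CD organoids, where *Igfbp7* was also high, the same list summed to 3.49 to 3.85 CPM, below the 6.94 to 18.9 CPM of the UB organoids. The UB sums were mostly *Egfl7*, at 16.5, 10.7 and 4.57 CPM at day 5, day 10 and day 20 and 1.62 CPM in CD organoids. *Pecam1* (0.757 ± 0.0636 CPM), *Cdh5* (0.566 ± 0.00581 CPM) and *Emcn* (0.419 ± 0.0885 CPM) were above their UB means in CD organoids. Those UB means were at most 0.665, 0.515 and 0.0959 CPM. *Kdr* (0.147 ± 0.0943 CPM) and *Tek* (0.16 ± 0.227 CPM) were below their UB means of at least 0.247 and 0.204 CPM. The summed level of the 6 stromal markers was 125 to 239 CPM in CD organoids against 9.18 to 29 CPM in UB organoids. Within that list *Col3a1* (90.2 ± 40.8 CPM), *Col1a1* (53.4 ± 32.4 CPM), *Dcn* (22 ± 0.661 CPM) and *Pdgfra* (13.5 ± 5.53 CPM) were above their UB organoid means, while *Pdgfrb*, at 2.48 ± 1.13 CPM, lay within the UB range of 1.21 to 4.64 CPM and *Foxd1*, at 0.0757 ± 0.00636 CPM, was under the floor and below its UB means of 0.0937 to 0.106 CPM. The part of stromal cells in the CD organoid values was not tested, nor that of endothelial cells in the adult values.

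*Igfbp4* and *Igfbp3* shared a low point in CD organoids. *Igfbp4*, which encodes a binding protein mostly described as an inhibitor of IGF action and as the main substrate of PAPPA, was at 254 and 178 CPM at day 5, 365 and 313 CPM at day 10, 327 and 326 CPM at day 20 and 290 and 351 CPM in adult mCD. In CD organoids it was at 17.2 and 5.53 CPM, below every other library, and these 2 libraries differed about as much as their level. *Igfbp4* fell 29.2-fold from day 10 UB organoids to CD organoids (log2 −4.87, SE 0.316, adjusted p = 2.11e-08), was 28.1-fold lower there than at day 20 (log2 −4.81, SE 0.316, adjusted p = 3e-08) and 27.5-fold lower than in adult mCD (log2 −4.78, SE 0.316, adjusted p = 2.39e-08). Without the first CD organoid library these log2 fold changes were −5.92, −5.87 and −5.84, and without the second −4.28, −4.25 and −4.22. Day 10, day 20 and adult mCD overlapped, and the difference between adult mCD and day 20 was −0.03 on the log2 scale (SE 0.247, adjusted p = 0.945), a sign that turned with another scaling.

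*Igfbp3* encodes the main carrier of IGFs in blood, where it forms a complex with the ligand and the product of *Igfals*. It was at 16.1 and 13.4 CPM at day 5, 24.3 and 16.3 CPM at day 10, 18.0 and 16.9 CPM at day 20, 2.28 and 1.93 CPM in CD organoids and 181 and 183 CPM in adult mCD. The UB organoids thus lay between the other 2 groups with no overlap, while day 10 and day 20 overlapped. CD organoids had 9.37-fold less than day 10 UB organoids (log2 −3.23, SE 0.222, adjusted p = 3.69e-08) and 8.1-fold less than day 20 UB organoids (log2 −3.02, SE 0.231, adjusted p = 1.3e-07). Both differences kept their direction but fell short of 4-fold with limma on RPKM. *Igfbp3* in adult mCD was 10.4-fold above day 20 (log2 3.38, SE 0.153, adjusted p = 2.87e-10), so that CD organoids and adult mCD stood 84.2-fold apart (log2 −6.39, SE 0.204, adjusted p = 2.1e-11), the largest difference of the 9 genes in any of the 7 comparisons. Besides the endothelial markers given above, the podocyte list stood in adult mCD at 296 to 351 CPM, mostly *Podxl* at 305 ± 19.6 CPM, a gene that endothelium expresses too. The part of other cell types in the adult *Igfbp3* level was not tested.

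*Igfbp5*, the most conserved binding protein and a strong binder of extracellular matrix, had a low point within the UB series. It was at 568 and 765 CPM at day 5, 439 and 200 CPM at day 10, 160 and 214 CPM at day 20, 606 and 644 CPM in CD organoids and 735 and 728 CPM in adult mCD. Day 5, CD organoids and adult mCD formed an upper range in which day 5 overlapped each of the other groups, and day 10 and day 20 a lower range in which the groups overlapped. Its difference between day 20 and day 5 was 3.57-fold (log2 −1.83, SE 0.267, adjusted p = 7.07e-05), that between CD organoids and day 20 was 3.34-fold (log2 1.74, SE 0.267, adjusted p = 0.000102) and that between adult mCD and day 20 was 3.91-fold (log2 1.97, SE 0.268, adjusted p = 2.15e-05). None of these *Igfbp5* differences passed 4-fold. Without the second day 20 library the adult difference did, at 2.19 on the log2 scale, as did that between day 20 and day 5, at −2.04, which also passed without the first day 5 library, at −2.03. Between CD organoids and adult mCD the log2 difference of *Igfbp5* was −0.23 (SE 0.257, adjusted p = 0.497) and turned to 0.17 with library totals alone.

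*Igfbp1* and *Igfbp6* were scarce. *Igfbp1*, which encodes a binding protein known in liver for its repression by insulin, was counted 31 and 14 times in the day 5 libraries, 56 and 28 times at day 10, 8 and 4 times at day 20, 5 and 6 times in CD organoids and 36 and 51 times in adult mCD. On the CPM scale this gave at most 1.62 ± 0.848 CPM in the organoids and 3.36 ± 0.916 CPM in adult mCD, whose libraries both lay above all others. *Igfbp1* was 7.88-fold higher in adult mCD than at day 20 (log2 2.98, SE 0.531, adjusted p = 0.000252) and 7.26-fold higher than in CD organoids (log2 −2.86 for CD organoids against adult mCD, SE 0.544, adjusted p = 0.000558). The latter rests on few counts and had an adjusted p of 0.012 without the first CD organoid library. *Igfbp6*, which encodes a binding protein with a marked preference for IGF2, never passed 16 counts and lay between 0 and 0.829 CPM. The first day 20 library had 0 counts, which allows up to 0.182 CPM. Its groups overlapped except that day 20 was lower than the rest, and at 5.68-fold the difference between adult mCD and day 20 did not reach the threshold (log2 2.51, SE 0.879, adjusted p = 0.0261). Differences of *Igfbp6* in the other comparisons were not detectable at this depth.

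*Igf1* itself was nearly silent in the organoids and present in adult mCD. The ligand gene was counted 4 and 4 times at day 5, 24 and 22 times at day 10, 5 and 13 times at day 20 and 4 and 3 times in CD organoids, against 216 and 189 times in adult mCD. On the CPM scale the organoid libraries ran from 0.163 to 0.952, and the adult libraries stood at 16.3 and 14.9. *Igf1* was 24.9-fold higher in adult mCD than at day 20 (log2 4.64, SE 0.326, adjusted p = 2.56e-08, and 5.46 without the second day 20 library) and 49.1-fold higher than in CD organoids (log2 −5.62 for CD organoids against adult mCD, SE 0.373, adjusted p = 2.52e-08). The rise of 4.2-fold from day 5 to day 10 (log2 2.07, SE 0.416, adjusted p = 0.0017) rests on 4 counts in each day 5 library. It kept its size, at 2.09, 2.04 and 1.93 on the log2 scale, but not the call without the first or the second day 5 library or without the first day 10 library. The call was also lost with prior count 5 (log2 1.39), with limma on RPKM (0.06) and in the fit of only the 4 libraries compared (2.15). The remaining alternatives kept it. Per length the adult level was still low, at 1 ± 0.0697 RPKM, against 12 ± 0.139 RPKM for *Igf1r*. Adult mCD also held the tubule and endothelial marker levels given above, and the part of other cell types in the adult *Igf1* level was not tested.

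*Igf1r*, which encodes the receptor, was expressed in all libraries and moved within a narrow range. It was at 374 and 389 CPM at day 5, 386 and 478 CPM at day 10, 664 and 621 CPM at day 20, 265 and 261 CPM in CD organoids and 241 and 239 CPM in adult mCD. Day 20 was highest, day 5 and day 10 overlapped, and CD organoids and adult mCD were lowest without overlap. The level at day 20 was 1.68-fold that at day 5 (log2 0.75, SE 0.0913, adjusted p = 1.43e-05). CD organoids had 2.44-fold less than day 20 (log2 −1.29, SE 0.0929, adjusted p = 7.37e-08) and 1.64-fold less than day 10 (log2 −0.72, SE 0.0919, adjusted p = 1.74e-05). Adult mCD had 2.67-fold less *Igf1r* than day 20 (log2 −1.42, SE 0.0933, adjusted p = 1.27e-08), and CD organoids and adult mCD differed by 0.13 on the log2 scale (SE 0.0924, adjusted p = 0.267). The test separated the groups in each of these comparisons except the last, and no *Igf1r* difference reached 4-fold.

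**Figure D2:**
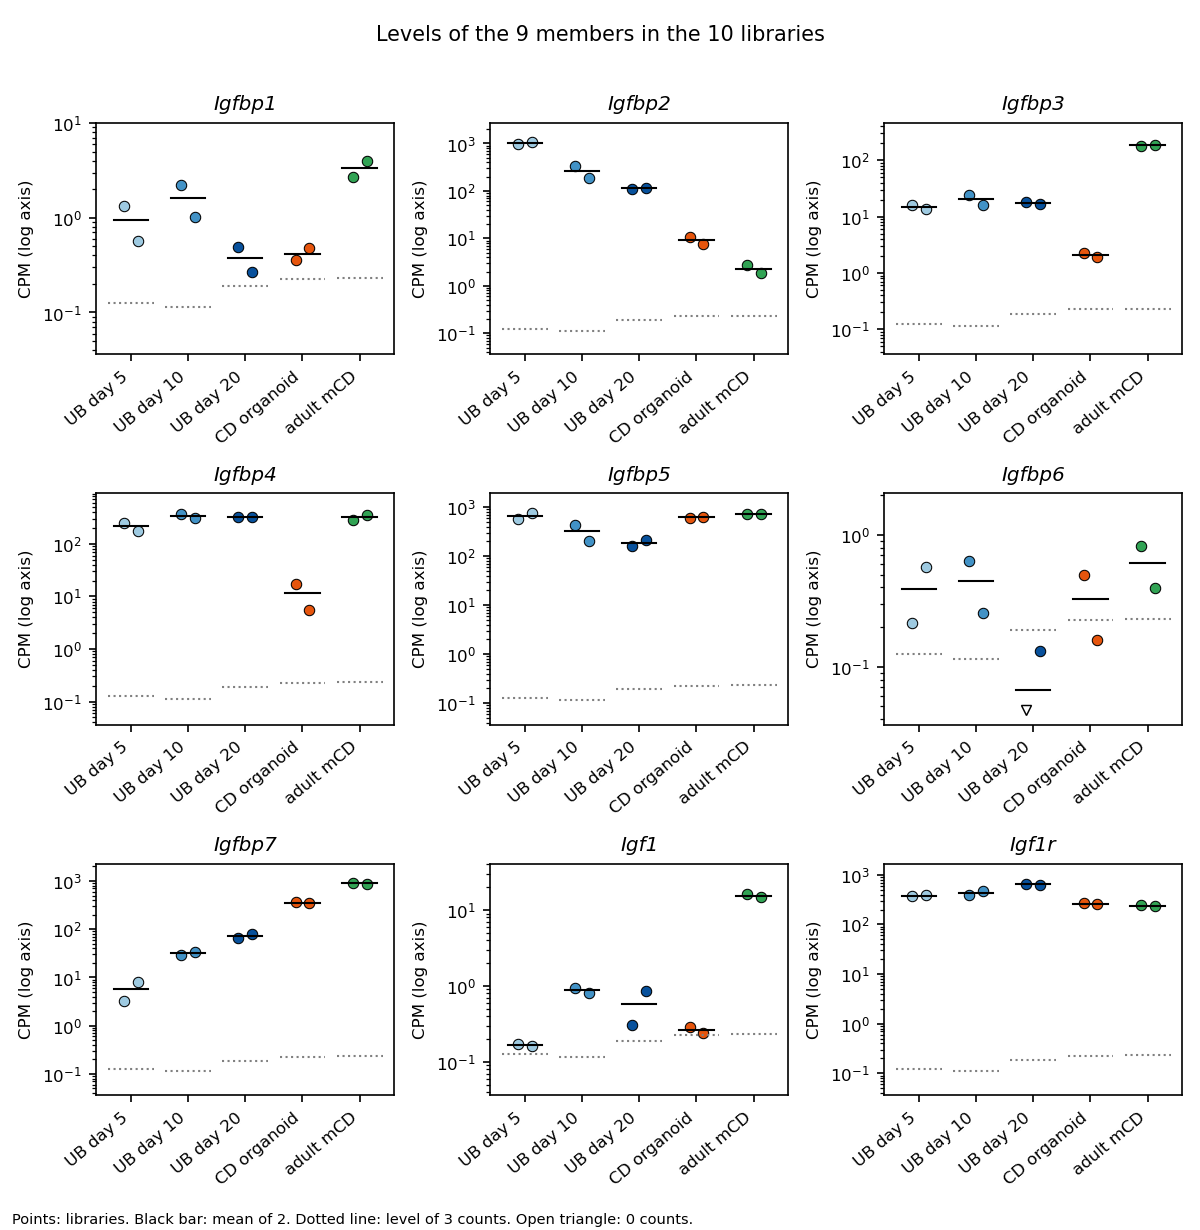
Level in CPM (log axis) of each of the 9 genes in every library, grouped by UB organoid day, CD organoids and adult mCD, with the mean of 2 libraries as a bar, the level of 3 counts as a dotted line and 0 counts as an open triangle. *Igfbp2* descends from 1086 to 1.89 CPM, *Igfbp7* ascends from 3.20 to 905 CPM, and *Igfbp3* and *Igfbp4* have their lowest points in CD organoids.

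Within UB organoids, the later days had less *Igfbp2* and more *Igfbp7*. The Y-linked sum was 230 and 259 CPM at day 20 against at most 0.875 CPM at day 5 and day 10. Culture time and embryos therefore cannot be told apart in the comparisons with day 20. For a gene to be called, it needed an adjusted p of at most 0.01 and more than 4-fold difference in edgeR over all 24410 genes tested, and all 9 genes were tested in each comparison. From day 5 to day 10, 2 of 9 were called higher (*Igfbp7* and *Igf1*), where 2.34% of all genes tested were, and 0 were called lower by edgeR or DESeq2, where 1.07% were, with an unadjusted p under 0.05 for 2 that were lower. An unadjusted p under 0.05 in either direction was found for 41.6% of all genes tested. The nearest to a call was *Igfbp2*, which passed 4-fold in some of the alternatives given with it above. From day 10 to day 20, 0 of 9 were called in either direction by edgeR, where 1.66% of all genes were called higher and 1.73% lower, and DESeq2 also called 0. In that comparison 6 of 9 had an unadjusted p under 0.05, as did 39.4% of all genes tested, and the median log2 fold change of the 9 was −0.57 against −0.10 for all genes tested. From day 5 to day 20, 1 of 9 was called higher (*Igfbp7*, background 4.68%) and 1 lower (*Igfbp2*, background 3.93%). These 3 comparisons share libraries and are not independent.

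CD organoids had less *Igfbp2*, *Igfbp3* and *Igfbp4* and more *Igfbp7* than UB organoids of either day. CD organoids are made from day 10 UB organoids, but the Y-linked sum was at most 0.875 CPM in the day 10 libraries and 290 and 295 CPM in the CD organoid libraries, so these day 10 libraries were not the same material. Against day 10, 3 of 9 genes were called lower, where 5.71% of all genes tested were, and 1 higher, where 4.96% were. The same 4 genes were called against day 20 UB organoids, 3 lower (background 4.73%) and 1 higher (background 4.74%), with the same CD organoid libraries in both comparisons. The median log2 fold change of the 9 genes was −1.55 against day 10 and −0.98 against day 20, and that of all genes tested was −0.145 and 0. The media differ in many components. CD organoids also had further days of culture after day 10, and their total culture time differed from that of both UB groups. The parts of the medium components, culture time and embryos in these differences cannot be told apart.

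Adult mCD differed from CD organoids in 4 genes, which were all higher in the adult cells. *Igfbp1*, *Igfbp3*, *Igfbp4* and *Igf1* were called lower in CD organoids, 4 of 9 against 9.84% of all genes tested, and 0 of 9 were called higher by edgeR and by DESeq2, against 4.5%. *Igfbp2* at 3.89-fold was nearest to a call in that direction, and it was the 1 gene higher in CD organoids with an unadjusted p under 0.05, a p that 54.8% of all genes tested had in either direction. Against day 20 UB organoids, adult mCD was called higher for 4 of 9 genes (*Igfbp1*, *Igfbp3*, *Igfbp7* and *Igf1*, background 12.3%) and lower for 1 (*Igfbp2*, background 6.89%). DESeq2 called 6 genes there, adding *Igfbp5*. The adult libraries carried TMM composition factors of 0.792 and 0.793, far from those of the others, and with library totals alone the median log2 fold change of all genes moved from 0 to 0.35 for CD organoids against adult mCD and from −0.06 to −0.47 for adult mCD against day 20. The calls of *Igfbp1*, *Igfbp3*, *Igfbp4*, *Igfbp7* and *Igf1* named here held with library totals, which also called *Igfbp2* higher in CD organoids, at 2.34 on the log2 scale. The adult libraries also held the tubule and endothelial marker levels given above. They came from sorted cells of adult kidneys with another reporter, whereas the organoids were cultured. The parts of cell types, age, reporter and culture in the differences of all these genes cannot be told apart.

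**Figure D3:**
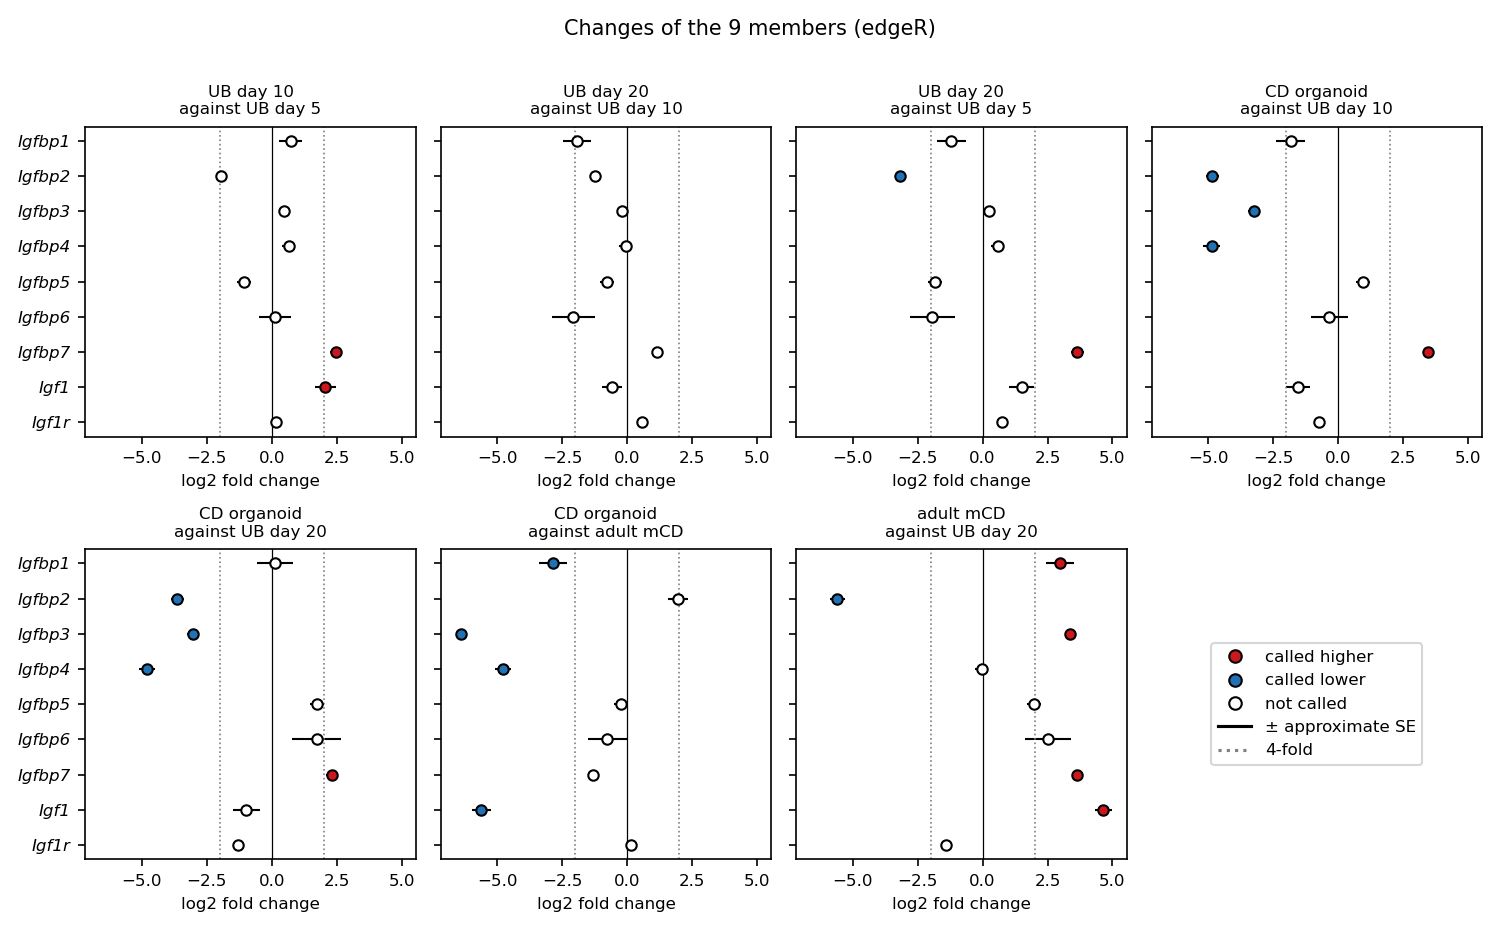
Log2 fold change of the 9 genes in the 7 comparisons (edgeR), with the approximate SE as a horizontal line, dotted lines at 4-fold and filled points for called genes (red higher, blue lower). *Igfbp7* is to the right at 3.48 and *Igfbp2*, *Igfbp3* and *Igfbp4* are to the left at −4.85, −3.23 and −4.87 in CD organoids against day 10.

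The wider IGF pathway was read from 33 further genes, 32 of which were tested. Of the other ligand genes, *Igf2* was the IGF expressed in early UB organoids. It was at 46.9 and 54.4 CPM at day 5, 24.7 and 3.21 CPM at day 10, 0.486 and 0.529 CPM at day 20, 1.85 and 1.12 CPM in CD organoids and 1.28 and 0.786 CPM in adult mCD. *Igf2* fell 24.8-fold from day 10 to day 20 (log2 −4.63, SE 0.88, adjusted p = 0.00143), although the 2 day 10 libraries differed widely, and 90.5-fold from day 5 to day 20 (log2 −6.5, SE 0.83, adjusted p = 2.23e-05). The gene overlaps its antisense gene *Igf2os*, whose reads cannot be told apart from it here. The same limit holds for other pathway genes named below that overlap a gene on the opposite strand. Among them are *Insrr* (with *Pear1*), *Htra1* (with *Fgfr2*), *Esm1* (with *Gzmk*), *Igf2r* (with *Airn*) and *Irs2*. *Ins1* did not pass 0.198 CPM and *Ins2* was at 0 in every library.

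Among the receptors, *Igf2r*, which encodes the clearance receptor of IGF2, and *Insr*, the insulin receptor gene, were present throughout. *Igf2r* ran at 711, 516, 566, 219 and 189 CPM in day 5, day 10, day 20, CD organoids and adult mCD, and its difference between CD organoids and day 10 was −1.24 on the log2 scale (SE 0.071, adjusted p = 6.26e-09), under 4-fold. *Insr* stayed between 103 and 163 CPM in all libraries. *Insrr*, which encodes an insulin receptor relative that acts as a sensor of alkaline pH in intercalated cells, was at 0 and 3 counts at day 10 and at 180 and 171 CPM in CD organoids, at least 1540-fold higher by the floor of 3 counts per library. It was at 280 and 291 CPM in adult mCD. Intercalated cell markers moved in the same direction, from at most 4.43 CPM summed in UB organoids to 919 to 995 CPM in CD organoids and 1600 to 1630 CPM in adult mCD.

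Of the 6 adaptor genes, *Irs2* stood apart from *Irs1*. *Irs2* was at 325, 236 and 468 CPM at day 5, day 10 and day 20 and at 744 CPM in adult mCD, and in CD organoids, at 23.5 CPM, it was 19.9-fold lower than at day 20 (log2 −4.32, SE 0.129, adjusted p = 2.81e-11) and 31.7-fold lower than in adult mCD (log2 −4.99, SE 0.132, adjusted p = 5.88e-12). *Irs1* was at 39, 81.7, 37, 67.5 and 31.5 CPM in the same order of groups and was not called in any comparison. The 9 genes of the PI3K, AKT and FOXO list gave 0 calls in the 7 comparisons by edgeR and by DESeq2, against 9.87% of all genes over the same comparisons. Of these 63 differences, which share libraries, 45 had an unadjusted p under 0.05, as had 49.7% of those of all genes.

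Of the IGFBP protease genes, *Pappa* and *Htra1* were highest in adult mCD. *Pappa2* was not, at 23.8 CPM there against 29.2 CPM at day 20 (log2 −0.29, SE 0.156, adjusted p = 0.131 in edgeR). *Pappa*, the protease gene whose product cuts IGFBP4, was at 1.56, 2.06 and 0.548 CPM in the UB organoids, 131 CPM in CD organoids and 315 CPM in adult mCD, 62.4-fold higher in CD organoids than at day 10 (log2 5.96, SE 0.208, adjusted p = 6.35e-11). *Pappa2*, whose product cuts IGFBP3 and IGFBP5, was at 0.598 and 0.653 CPM at day 5, 2.58 and 1.79 CPM at day 10, 27.5 and 30.9 CPM at day 20, 2 counts and 1 count in CD organoids and 22.3 and 25.3 CPM in adult mCD. It rose 13.1-fold from day 10 to day 20 (log2 3.71, SE 0.184, adjusted p = 1.53e-08) and adult mCD exceeded CD organoids at least 105-fold by the floor of 3 counts per library. *Htra1*, another secreted protease gene, was at 70.5 CPM in adult mCD against 1.38 CPM at day 20. *Esm1*, an IGFBP-domain gene of endothelium, was at 196 and 147 counts in adult mCD and at 0 in all 8 organoid libraries, beside the endothelial marker levels given above. The adult libraries also held the tubule marker levels given above. The part of other cell types in the adult levels of *Irs2*, *Pappa*, *Pappa2*, *Htra1* and *Esm1* was not tested.

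The genes of the Igf2 mRNA binding proteins, fetal RNA binding proteins that share no domain with IGFBPs, were also lower at day 20 than at day 5 and day 10. Culture time and embryos cannot be told apart in this difference. *Igf2bp1* went from 248 CPM at day 5 through 64.8 CPM to 1.16 CPM at day 20 (54.2-fold from day 10 to day 20, log2 −5.76, SE 0.545, adjusted p = 5.32e-06), with 18.8 CPM in CD organoids and 2.61 CPM in adult mCD. *Igf2bp3* went from 90.4 through 43.8 to 5.79 CPM, with 55.8 CPM in CD organoids and 0.842 CPM in adult mCD. CD organoids thus lay 62.0-fold above adult mCD for *Igf2bp3* (log2 5.95, SE 0.227, adjusted p = 1.05e-10). Counted over all 32 genes tested, 0 were called from day 5 to day 10 by edgeR or DESeq2, where 3.41% of all genes were called. Of the 32, 24 had an unadjusted p under 0.05 there, against 41.6% of all genes. From day 10 to day 20, 1 was called higher (background 1.66%) and 5 lower (1.73%), and from day 5 to day 20 again 1 higher (4.68%) and 5 lower (3.93%). In CD organoids, 2 were called higher (4.96%) and 3 lower (5.71%) against day 10, 4 higher (4.74%) and 2 lower (4.73%) against day 20, and 4 higher (4.5%) and 5 lower (9.84%) against adult mCD. In adult mCD against day 20, 5 were called higher (12.3%) and 3 lower (6.89%), which as shares of 32 genes lie near those of all genes.

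**Figure D4:**
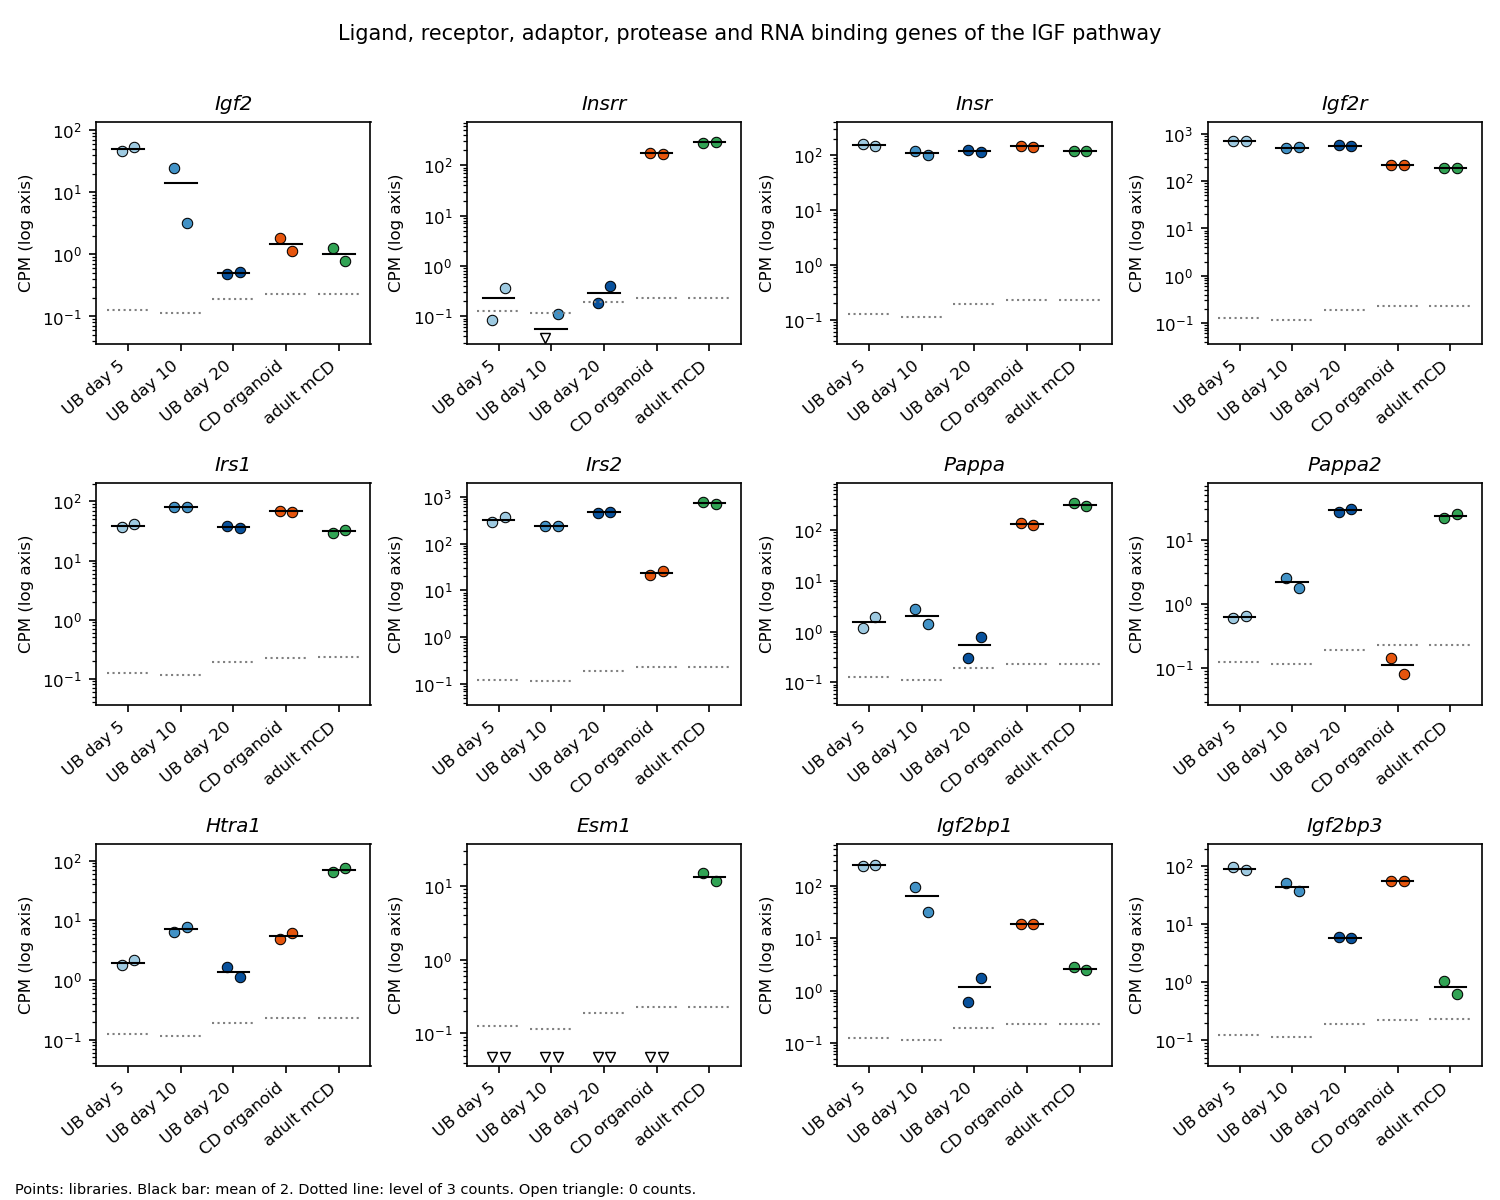
Level in CPM (log axis) of 12 genes of the IGF pathway in every library, with the mean of 2 libraries as a bar, the level of 3 counts as a dotted line and 0 counts as an open triangle. *Insrr* and *Pappa* are high in CD organoids and adult mCD, *Irs2* and *Pappa2* are lowest in CD organoids, and *Insr* stays between 103 and 163 CPM.

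The genes whose pattern was most like that of each binding protein gene were sought by Pearson correlation of log2 CPM over the 10 libraries, among 13171 genes with a mean of at least 5 CPM in a group. The libraries fall into 5 groups, so such correlations mainly compare group means, and they are given as descriptions. A correlation also takes no account of the size of a change. For *Igfbp2* the closest were *Fam98b* (r = 0.998), *Snrpa* (0.997) and *Bri3bp* (0.996), which changed far less. From day 5 to adult mCD the means went from 1030 to 2.3 CPM for *Igfbp2*, 68.3 to 37.6 for *Fam98b*, 128 to 28.7 for *Snrpa* and 248 to 45.1 for *Bri3bp*. For *Igfbp7* they were *Fam13a* (r = 0.998), *Ildr1* (0.996) and *Slc25a45* (0.994). For *Igfbp3* they were *Atp4a* (r = 0.989), *N4bp3* (0.988) and *Slc38a2* (0.988). *Igfbp4* was closest to *Rftn1* (r = 0.983), *Khdrbs3* (0.979) and *Fgfr4* (0.976), with lower rank correlations (Spearman rho 0.673, 0.794 and 0.467), and *Atp4a* had a rho of 0.770 with *Igfbp3*. *Igfbp5* was closest to *Col20a1* (r = 0.983), *Ndufv3* (0.977) and *Abcc1* (0.975). *Igf1* was closest to *Notch4* (r = 0.983), *Esam* (0.980) and *Xylb* (0.978), and *Igf1r* to *Plekhg1* (r = 0.987), *Nomo1* (0.985) and *Slc7a11* (0.979). *Igfbp1* and *Igfbp6* stayed under 5 CPM in every group and were left out.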

How the data were processed

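RNA-seq of 10 mouse libraries was deposited as a table of counts per gene with 2 normalised forms. Per the labels, the authors trimmed reads (cutadapt 2.5, Trimmomatic 0.36, FastQC 0.11.8), aligned them with STAR to GRCm38.p6 and normalised with edgeR 3.28.1. The methods name Partek Flow and GENCODE release 24, and differ from the labels on the RNA and library kits. The deposited RPKM are counts divided by gene length and by library sizes with TMM composition factors. The deposited scaled signal (TMM values) was used only in an alternative.

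From the counts, genes with at least 10 counts over all libraries (24410 of 39273) were fitted by edgeR 4.0.16 (R 4.3.3; glmQLFit and glmQLFTest, two-sided, TMM, prior count 1) with all 10 libraries in a single fit of group means. Adjusted p-values are Benjamini-Hochberg over all genes tested, a call needed at most 0.01 and more than 4-fold, and SE are approximate (absolute log2 fold change over the square root of F). Tested on simulated data (day 20 against day 5, 23609 genes), 200 of 200 genes changed 8-fold were called with 2 false calls. The changed genes were drawn from those with a mean of at least 5 CPM. The simulation therefore does not cover scarce genes such as *Igfbp1* and *Igfbp6*, or changes near 4-fold. Values are mean ± SD. Positions are from GENCODE release 21, in which 99.7% of gene IDs were found, and upstream windows from RefSeq.

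All 9 members were named. Of the pathway lists, *Igf2*, *Igf2r*, *Insr*, *Irs1* and *Irs2* were always named, and per comparison up to 4 called genes with the largest fold change and a mean of at least 5 CPM. For each member with a mean of at least 5 CPM in a group, the 3 most alike genes were named. The members and lists were chosen with earlier results of these data known. Ranges and zeros of *Ins1* and *Ins2* were added after their values were seen.

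Alternatives changed the scaling, low-count filter, prior count, tool (DESeq2 1.42.0, limma 3.58.1 on log2(RPKM + 1) or log2(scaled value + 1)), libraries in the fit, replicate block and each library in turn.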

Additional observations from a re-analysis of the deposited data

How the results depend on the processing

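The scaling, filter and prior count changed few calls, and among the tools limma on RPKM lost the most, 7. Of the log2 fold changes of the 9 genes, 900 alternatives kept direction and call, 17 gained a call, 14 lost it and 14 reversed. With the limit at an adjusted p of 0.05 and no fold limit, the genes called became, of 9 and beside the share of all genes, 5 (day 10 against day 5, 32.7%), 5 (day 20 against day 10, 29%), 5 (day 20 against day 5, 45.1%), 8 (CD organoids against day 10, 47.2%), 6 (CD organoids against day 20, 42.2%), 6 (CD organoids against adult mCD, 49.9%) and 8 (adult mCD against day 20, 56.4%). For day 10 against day 5, prior count 5 and a fit of only 4 libraries each gave 1. With limma on RPKM, CD organoids against adult mCD gave 2 and adult mCD against day 20 gave 3. That setting also lost the *Igfbp3* calls in CD organoids against day 10 and against day 20. The added 1 RPKM shrinks low genes. Leaving out libraries gave 1 to 2 (day 10 against day 5), 0 to 1 (day 20 against day 10), 2 to 3 (day 20 against day 5), 4 to 5 (CD organoids against day 10), 4 (CD organoids against day 20), 3 to 5 (CD organoids against adult mCD) and 5 to 6 (adult mCD against day 20). Reversals touched values that were not called: over the fits without a library, *Igfbp6* ran from −0.54 to 0.88 at day 10 against day 5 (−0.34 without the first day 5 library) and from −1.21 to 0.35 in CD organoids against day 10 (0.17 without the second CD organoid library), *Igf1r* from 0 to 0.31 at day 10 against day 5, *Igfbp3* from −0.44 to 0.12 and *Igfbp4* from −0.14 to 0.08 at day 20 against day 10, *Igfbp1* from −0.21 to 0.56 in CD organoids against day 20 (−0.09 without the second CD organoid library) and *Igfbp4* from −0.19 to 0.04 in adult mCD against day 20. The last was also 0.04 with DESeq2 and with its size factors, and *Igfbp5* in CD organoids against adult mCD was 0.17 with library totals and with limma on scaled values. The cause was not tested.

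Replicate numbers are shared between groups, but deviations of same-numbered libraries correlated at only −0.064 to 0.095, so they were not taken as pairs. With the replicate block, 3 genes were called for day 10 against day 5, adding *Igfbp2* at −2 on the log2 scale, and no other count of calls changed. Depth limits *Igfbp1*, *Igfbp6* and organoid *Igf1*, which rest on few counts.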

Other observations

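Other genes of the pathway lists passed the same threshold and were chosen after their values were seen. *Grb10*, which encodes an imprinted adaptor that inhibits IGF1R and insulin receptor signalling, was at 1390 ± 63 CPM (SD, n = 2) at day 5, 898 ± 153 CPM at day 10 and 124 ± 11.8 CPM at day 20, a fall from day 10 to day 20 of 2.86 on the log2 scale (SE 0.111, adjusted p = 1.44e-09 in edgeR). CD organoids were at 345 ± 0.287 CPM and adult mCD at 92 ± 0.55 CPM of *Grb10*. *Igf2bp2* was at 407 ± 10.6 CPM at day 5, 59.8 ± 3.62 CPM at day 20, 122 ± 1.04 CPM in CD organoids and 9.16 ± 0.055 CPM in adult mCD, and CD organoids exceeded adult mCD by 3.73 on the log2 scale (SE 0.117, adjusted p = 1.8e-11). *Stc2*, whose product inhibits PAPPA, was at 57.1 ± 4.48 CPM in CD organoids and 4.83 ± 1.07 CPM in adult mCD, a log2 difference of 3.55 (SE 0.294, adjusted p = 2.32e-07). *Igfals*, the gene of the third partner of the circulating IGFBP3 complex, had at most 4.75 CPM in any library, and its highest mean was 4.73 ± 0.0229 CPM in adult mCD.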
